A study of Mus musculus with 12 samples.

Results

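The genes described here are 35 genes of fatty acid oxidation and targets of Ppara, grouped by the place where their proteins act: 17 in mitochondria, 6 in peroxisomes, 4 microsomal Cyp4a genes, 1 gene of ketogenesis, 6 secreted or regulatory genes and 1 cytosolic thioesterase. They were taken from a list of symbols chosen with earlier results of these data known, matched by Ensembl identifier to the 56205 genes of the deposited table. All 35 were found, and all 35 were among the 13416 genes with enough counts to be tested.

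RNA was sequenced from whole livers of 12 mice, 1 library per mouse. All mice were ob/ob (B6.Cg-Lep ob/J), young adult and stated to be male, so both groups lack leptin, the fat cell hormone that restrains appetite, and both carry the obese, fatty liver that follows. The FLO group (OBOB_FLO, n = 6) received standard chow. The fibrotic group, called so after its sample titles (OBOB_Fibrotic, n = 6), received standard chow and DL-ethionine, the ethyl analogue of methionine. The labels give the agent at 0.165% of the drinking water over 2 weeks in one place and as an injection at 0.15% in another, and the study's methods describe drinking water with a shorter exposure. The comparison asks how the oxidation genes of a fatty liver differ after ethionine.

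Fatty acids are oxidized from the carboxyl end, 1 acetyl unit at a time, after they have been joined to coenzyme A. Mitochondria take long chains in through the carnitine shuttle and shorten them in repeated rounds of dehydrogenation, hydration, a further dehydrogenation and thiolysis. Peroxisomes run a parallel pathway for very long and branched chains, and microsomal Cyp4a enzymes oxidize the opposite, omega, end of the chain. Ppara encodes PPAR-alpha, a nuclear receptor that fatty acids activate and that drives many of these genes in liver, as a heterodimer with the retinoid X receptor on direct repeats of a hexamer spaced by 1 base.

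The promoter of Fabp1 is shown because this gene had the largest fall of the list and was the only member with a match to the receptor's repeat in the window searched. Promoter windows of RefSeq (250 bases before to 50 after the gene's start) were found for 27 of the 35 members. The repeat AGGTCA, any base, AGGTCA was searched on both strands and was in 0 of these 27, and in 0.0481% of all 27025 genes with a window. A looser form with AGGNCA in place of each hexamer, which includes the strict one, was in 1 member, Fabp1, and in 0.451% of all genes. The stretch lies at chr6:71199629-71199826 on the plus strand of GRCm38.p6, and the match, in capitals, spans positions -67 to -55 from the RefSeq start and reads AGGCCATAGGTCA on the minus strand. The GENCODE M21 start of the gene, at 71199827, lies before the RefSeq start. The 52 bases from there to the RefSeq start are left out, so 198 bases are printed.
Fabp1: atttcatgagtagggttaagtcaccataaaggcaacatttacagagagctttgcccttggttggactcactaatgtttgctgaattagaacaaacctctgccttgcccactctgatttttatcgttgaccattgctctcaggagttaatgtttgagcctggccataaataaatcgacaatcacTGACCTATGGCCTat

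A stretch of coding sequence is shown next for Cyp4a genes whose reads are hard to tell apart. Cyp4a10, Cyp4a31 and Cyp4a32 are neighbours on the plus strand of chromosome 4, and their coding sequences are 96.0% to 97.2% identical. Of the 75-base windows of Cyp4a10, 12.6% are found unchanged in Cyp4a31 and 20.8% in Cyp4a32. The 60 bases below are bases 106 to 165 of each coding sequence, in the first coding exon, from GENCODE M21 on GRCm38. They were picked as the 60 bases within 1 exon where Cyp4a10 and Cyp4a31 differ most (6 positions, against 52 of 1527 over the coding sequence). Capitals mark the 6 positions where the bases are not the same in all 3 genes. The stretches lie at chr4:115518427-115518486 for Cyp4a10, chr4:115563822-115563881 for Cyp4a31 and chr4:115601080-115601139 for Cyp4a32.
Cyp4a10: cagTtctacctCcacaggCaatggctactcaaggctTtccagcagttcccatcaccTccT
Cyp4a31: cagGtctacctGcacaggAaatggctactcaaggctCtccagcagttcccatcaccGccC
Cyp4a32: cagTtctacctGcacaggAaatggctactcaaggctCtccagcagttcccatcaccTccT

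Total counts ranged from 17815568 to 24814263 per library. FLO replicate 3 stood against the stated sex, with 3773 counts of the X-inactivation transcript Xist and 4 of the Y-linked Ddx3y, where the other 11 libraries held 0 to 4 and 556 to 977. The same library and FLO replicate 2 held skeletal muscle markers at 175 and 74.5 CPM (a gene's counts relative to the library's TMM-adjusted total) in sum, against at most 1.87 CPM elsewhere. Fibrotic replicate 4 lay farthest from FLO on the first principal component, which held 59.7% of the variance. Hepatocyte markers were abundant in every library, at 50590 to 85500 CPM in sum in fibrotic and 73840 to 89240 CPM in FLO livers, lowest in fibrotic replicate 4, and 2 of 8 were called lower in fibrotic livers. Kupffer cell markers summed to 277 to 576 CPM against 219 to 262 CPM, with 7 of 8 called higher, and cholangiocyte markers to 80.6 to 274 CPM against 47.0 to 87.9 CPM, with 3 of 5 tested called higher. Spp1 made up most of this cholangiocyte sum, with a mean of 122 of 144 CPM in fibrotic and 60.5 of 69.6 CPM in FLO livers. Its call held in 3 of 12 fits that left out 1 library. Epcam and Sox9 were also called, and Krt7 and Krt19 were not. Stellate cell markers (224 to 359 CPM against 198 to 303 CPM) had 1 of 7 called higher and endothelial markers (118 to 163 CPM against 164 to 189 CPM) 1 of 6 called lower. The collagen gene Col1a1, a stellate marker here, was not called (log2 fold change -0.22, SE 0.33). The study also reported no Col1a1 difference in ethionine-treated ob/ob mice, so fibrotic is used below only as the group's name. Adipocyte markers summed to at most 6.16 CPM, lymphocyte markers to at most 3.50 CPM, and Ucp1 was at 0 in 11 of 12 libraries. In bulk liver, fewer hepatocytes and less RNA per hepatocyte cannot be told apart, and the part of these shifts in the values below was not tested.

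Across the 35 genes, 5 rose and 7 fell in fibrotic livers. Those that rose were Cyp4a31, Pdk4, Acot2, Cyp4a14 and Angptl4, and those that fell were Fabp1, Cpt1a, Eci2, Acadm, Acaa1b, Bdh1 and Crat. Calls needed an adjusted p of at most 0.01 in the edgeR quasi-likelihood test, with Benjamini-Hochberg adjustment over all tested genes, and a log2 fold change beyond 0.5 in either direction. By this rule 34.3% of the members were called, near the 29.9% of all 13416 tested genes (15.9% higher and 14.0% lower). A further 4 members passed the p threshold but not the fold limit, and 19 did not pass the p threshold. The median log2 fold change of the members was -0.21, against 0.03 for all tested genes. The lowest was -2.72 and the highest 3.53. The 2 groups of libraries did not overlap for 4 members that were higher and 8 that were lower, against 15.3% and 15.1% of all tested genes (30.4% in either direction). At an adjusted p of at most 0.05 with no fold limit, 8 members were higher and 15 lower, where 52.1% of all tested genes passed (27.3% higher and 24.8% lower).

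**Figure D1:**
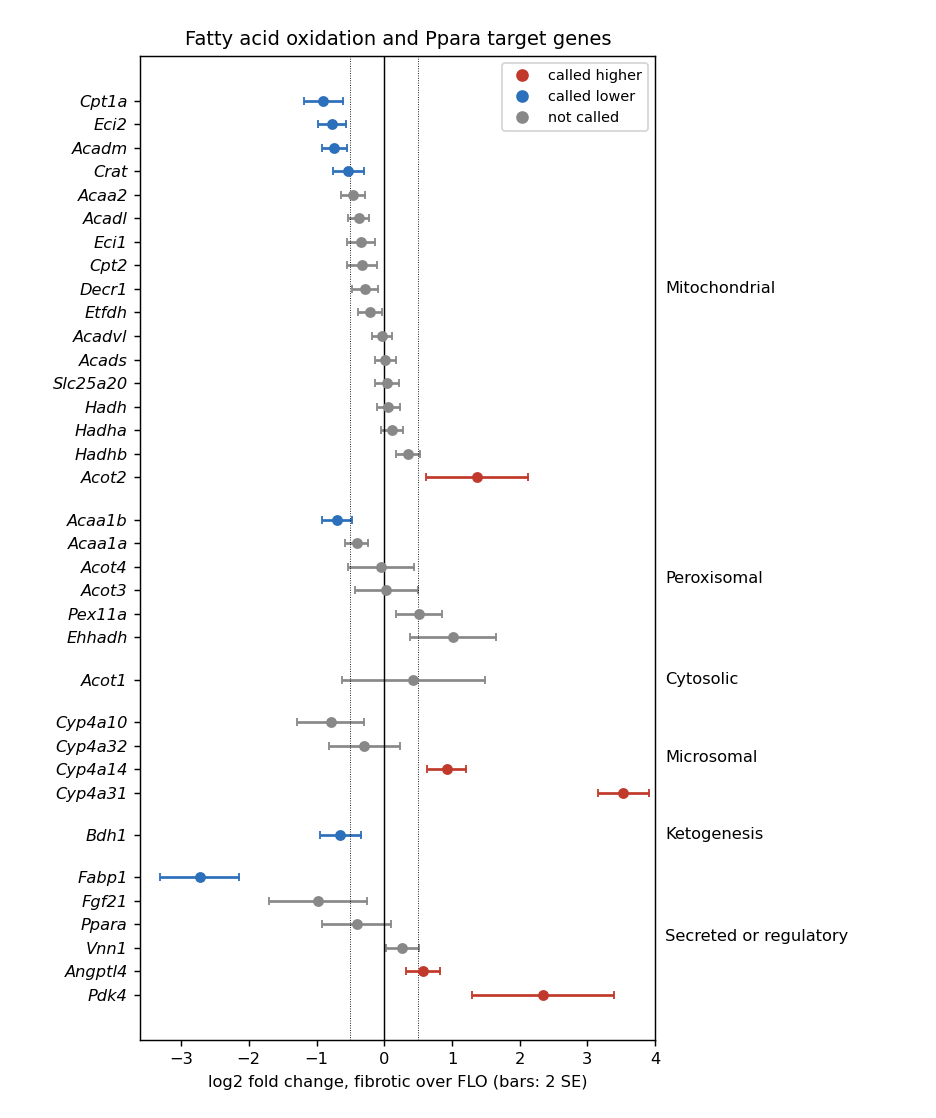
The log2 fold change of each of the 35 genes, fibrotic over FLO (points, with bars of 2 standard errors), grouped by place; dotted lines mark the fold limit of 0.5 in both directions. Calls run from Fabp1 at -2.72 to Cyp4a31 at 3.53, while the mitochondrial genes other than Acot2 lie between -0.90 and 0.35.

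Ppara itself was not called. Its level was 33.6, 75.8 and 88.0 CPM (lowest, median and highest) in fibrotic and 55.3, 96.4 and 118 CPM in FLO livers. The ranges overlapped, although all 6 fibrotic libraries lay below the FLO median. Fibrotic over FLO, it changed by -0.41 on the log2 scale (SE 0.25, adjusted p = 0.196), with 2 standard errors reaching from -0.91 to 0.10.

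Of the 3 genes of the shuttle that brings long chains into mitochondria, Cpt1a fell, and so did Crat, which acts on short acyl groups. Cpt1a encodes the liver carnitine palmitoyltransferase of the outer membrane, the rate-setting step of the shuttle. Its level was 225, 299.9 and 364 CPM in fibrotic and 412, 551 and 737 CPM in FLO livers, and the groups did not overlap. The fall was 1.87-fold (log2 fold change -0.90, SE 0.15, adjusted p = 0.000103), and it was called in all 12 fits that left out 1 library. Crat, the carnitine acetyltransferase, was at 82.9, 103 and 125 CPM against 123, 150.2 and 188 CPM. Its log2 fold change of -0.53 (SE 0.11, adjusted p = 0.00123) was close to the fold limit, and it was not called without fibrotic replicate 1 (-0.47) or without FLO replicate 4 (-0.46). The other genes of the shuttle gave values of -0.33 (Cpt2, the inner membrane transferase, adjusted p = 0.0206) and 0.04 (Slc25a20, the carnitine-acylcarnitine carrier, adjusted p = 0.730).

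Of the 4 acyl-CoA dehydrogenases that open each round of the mitochondrial spiral, only Acadm was called. Acadm, the medium-chain enzyme, fell 1.67-fold, from 481, 574 and 588 CPM in FLO to 286, 332 and 400.3 CPM in fibrotic livers, with no overlap (log2 fold change -0.74, SE 0.09, adjusted p = 1.15e-05). Acadl, the long-chain enzyme, lay lower in 6 of 6 fibrotic libraries without overlap but within the fold limit, at -0.38 (SE 0.08, adjusted p = 0.000922). The very-long-chain Acadvl was at -0.03 (SE 0.07, adjusted p = 0.758) and the short-chain Acads at 0.02 (SE 0.08, adjusted p = 0.883). Intervals of 2 standard errors were -0.18 to 0.12 for Acadvl and -0.14 to 0.17 for Acads, both inside the fold limit.

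None of the 4 genes of the later steps was called. Hadha and Hadhb, the subunits of the trifunctional protein that carries long chains through the last 3 steps, had log2 fold changes of 0.11 (SE 0.08, adjusted p = 0.265) and 0.35 (SE 0.09, adjusted p = 0.00375). Hadhb was at 312, 346 and 420 CPM in fibrotic and 247, 274 and 305 CPM in FLO livers, so that the groups did not overlap although the change stayed within the fold limit. Hadh, the dehydrogenase for shorter chains, was at 0.06 (adjusted p = 0.562). Acaa2, the mitochondrial thiolase, was at 707, 841 and 939 CPM against 1080, 1144 and 1249 CPM, again apart but within the fold limit (-0.46, SE 0.09, adjusted p = 0.000544). Hadhb and Acaa2, both of which have thiolase activity, thus lay on opposite sides of the FLO range.

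Unsaturated chains need auxiliary enzymes, which bring the double bond into the position the spiral can use. Eci2, an enoyl-CoA isomerase, fell 1.71-fold, from 183, 233 and 277 CPM to 121, 142 and 149 CPM, without overlap (log2 fold change -0.77, SE 0.10, adjusted p = 1.68e-05). Eci1, the other isomerase, was at -0.35 (adjusted p = 0.0102), and Decr1, the dienoyl-CoA reductase, at -0.29 (adjusted p = 0.0199). Etfdh, which passes electrons from the dehydrogenases to ubiquinone, was at -0.21 (adjusted p = 0.0520). None of the last 3 was called, and each was below the FLO median in 6 of 6 fibrotic libraries.

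Over the 17 mitochondrial genes, 4 fell and 1 rose, so that 29.4% were called, near the 29.9% of all tested genes. The shares were 23.5% lower and 5.88% higher, against 14.0% and 15.9% of all tested genes. The median log2 fold change of the 17 was -0.29. Their summed level was 4675 to 5686 CPM in fibrotic and 5707 to 6759 CPM in FLO livers. The sums did not overlap, although the highest fibrotic and the lowest FLO library were close. The share of all counts that came from the mitochondrial genome, which holds none of these genes, was 4.93% to 7.88% in fibrotic and 7.30% to 10.2% in FLO libraries.

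The 1 mitochondrial gene that rose was Acot2, a thioesterase that frees fatty acids from coenzyme A in the matrix. It was at 47.9, 88.8 and 234 CPM in fibrotic and 20.5, 40.8 and 61.5 CPM in FLO livers. Fibrotic replicate 4 was highest, and the lowest fibrotic library lay inside the FLO range. Acot2 had a log2 fold change of 1.37 with all libraries (SE 0.38, adjusted p = 0.00884). The call held in 4 of the 12 fits that left out 1 library and was lost without fibrotic replicate 4 (1.0, adjusted p = 0.0172) and without FLO replicate 3 (1.23, adjusted p = 0.0163).

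Acot2 is the start of a cluster of near relatives on chromosome 12, in the order Acot2, Acot1, Acot4, Acot3, Acot5 and Acot6. Acot1, the cytosolic form, was at 57.4, 110.1 and 565 CPM in fibrotic and 72.01, 139 and 179 CPM in FLO livers. With all libraries its change was 0.43 on the log2 scale (SE 0.53, adjusted p = 0.518), and it was -0.36 (SE 0.29, adjusted p = 0.328) without fibrotic replicate 4, which was 3.51 times the next library. The peroxisomal Acot3 and Acot4 were at 0.03 (adjusted p = 0.920) and -0.05 (adjusted p = 0.891). Acot5, a peroxisomal relative from the wider pathway list, rose from 0.383, 0.889 and 2.50 CPM to 7.37, 12.8 and 36.6 CPM, or by 3.72 on the log2 scale (SE 0.49, adjusted p = 3.84e-05). Acot6, from the same list, rose by 1.12 (SE 0.24, adjusted p = 0.00102) and was called in all 12 fits that left out 1 library. Its level was low, at 4.17, 9.09 and 11.8 CPM against 2.67, 3.80 and 5.78 CPM, and the groups overlapped. Acot1 and Acot2 share 36.7% of the 75-base windows of Acot1, so reads could be assigned to either. With their counts summed the log2 fold change was 0.72 (adjusted p = 0.206).

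In peroxisomes 1 of 6 members, the thiolase Acaa1b, fell, and none rose (16.7% called, against 29.9% of all tested genes). Acaa1b was among the most abundant members, at 2013, 2551 and 3099 CPM in fibrotic and 3795, 4192 and 4547 CPM in FLO livers. The groups did not overlap, and the fall was 1.63-fold (log2 fold change -0.70, SE 0.11, adjusted p = 8.54e-05). Its near copy Acaa1a, whose coding sequence is 96.5% identical, was lower without overlap but within the fold limit, at -0.41 (SE 0.08, adjusted p = 0.000781). Summing the counts of both thiolases gave -0.67 (adjusted p = 0.000102). Acaa1b holds most of the counts in this sum.

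Ehhadh, the peroxisomal bifunctional enzyme that precedes the thiolase, lay on the other side. It was at 711, 819 and 2745 CPM in fibrotic and 440.0, 535 and 674 CPM in FLO livers. Every fibrotic library was above every FLO library, and fibrotic replicate 4 was 3.10 times the next. On the log2 scale the change was 1.01 (SE 0.32, adjusted p = 0.0155), which was not called. Without fibrotic replicate 4 it was 0.53 (SE 0.11, adjusted p = 0.00121) and was called. Pex11a, a membrane protein of peroxisome division, was at 361, 516 and 548 CPM against 197, 374 and 437 CPM, with overlapping groups (0.52, SE 0.17, adjusted p = 0.0183). The summed level of the 6 peroxisomal members was 3612 to 6470 CPM in fibrotic and 5249 to 6157 CPM in FLO livers, with fibrotic replicate 4 highest.

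**Figure D2:**
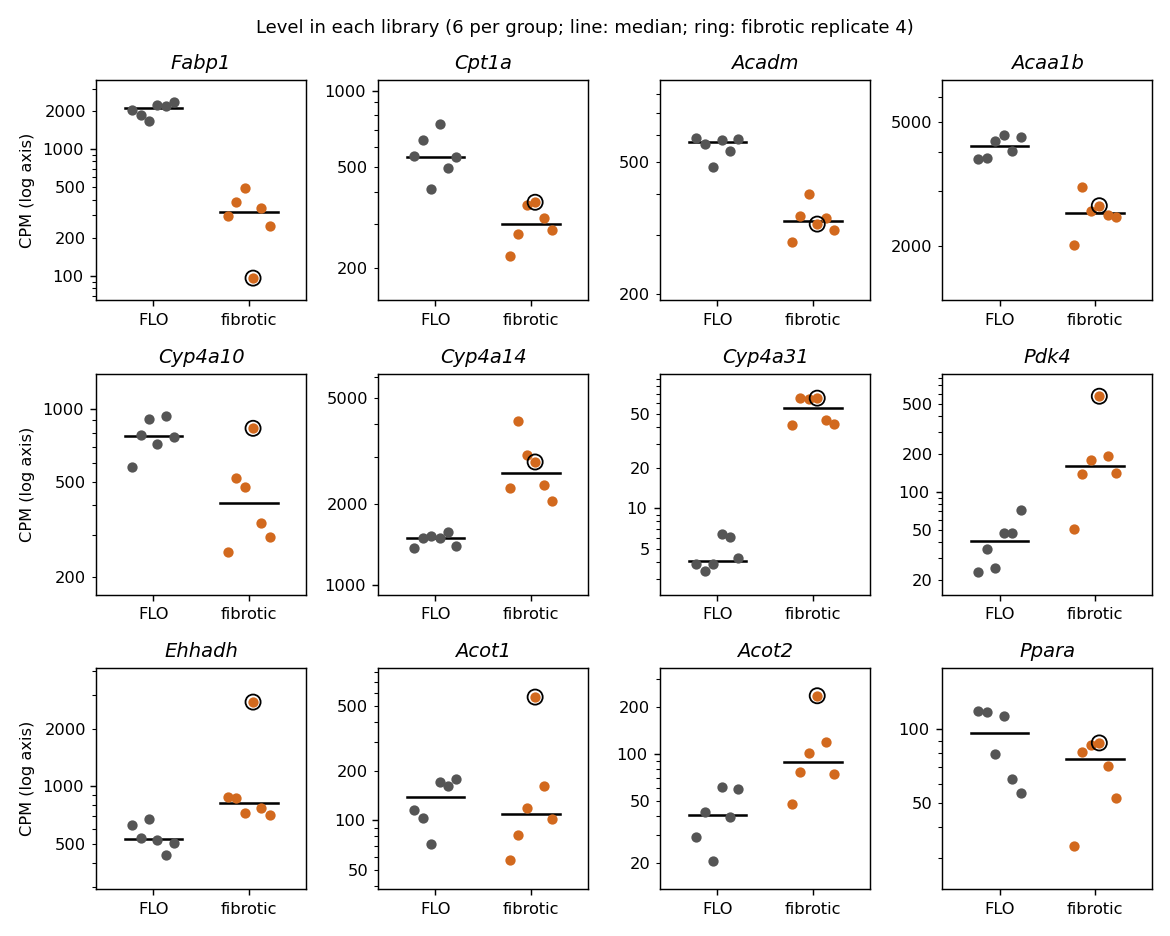
Level of 12 of the genes in each library in CPM on log axes, with 6 FLO (grey) and 6 fibrotic (orange) libraries per panel, a line at each median and a ring around fibrotic replicate 4. Fabp1, Cpt1a, Acadm and Acaa1b are lower without overlap, Cyp4a14, Cyp4a31 and Ehhadh higher without overlap, and fibrotic replicate 4 stands above the other fibrotic libraries for Ehhadh, Acot1, Acot2, Pdk4 and Cyp4a10.

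The 4 Cyp4a genes, the omega-hydroxylases that are standard readouts of PPAR-alpha activation in rodent liver, gave 2 rises and 2 values that were not called. Of all tested genes 15.9% were called higher. Cyp4a14 rose 1.89-fold, from 1376, 1492 and 1575 CPM to 2050, 2614 and 4089 CPM, without overlap (log2 fold change 0.92, SE 0.15, adjusted p = 9.71e-05). Cyp4a31 rose 11.5-fold from a low level, from 3.45, 4.11 and 6.41 CPM to 41.3, 54.8 and 65.8 CPM (log2 fold change 3.53, SE 0.19, adjusted p = 4.97e-09). Both were called in all 12 fits that left out 1 library. The 6 fibrotic libraries were close to each other for Cyp4a31, and fibrotic replicate 4 did not stand apart.

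Cyp4a10, the neighbour that lies head to head with Cyp4a14, had a negative value. It was at 254, 406 and 834 CPM in fibrotic and 574, 776 and 936 CPM in FLO livers. Only fibrotic replicate 4 reached above the FLO median, and the other 5 fibrotic libraries were below the lowest FLO library. This gave a log2 fold change of -0.79 with all libraries (SE 0.25, adjusted p = 0.0158), not called, and it was -1.05 (SE 0.18, adjusted p = 0.000312), called, without fibrotic replicate 4. DESeq2 (-0.81, adjusted p = 0.00230) and limma-voom (-0.89, adjusted p = 0.00638) called it with all libraries. Cyp4a32 was at 6.68, 8.36 and 18.4 CPM against 7.0, 11.5 and 16.9 CPM (-0.29, SE 0.26, adjusted p = 0.370).

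The coding sequences of Cyp4a31 and Cyp4a10 differ at 52 of 1527 bases, among them positions in capitals above, and the part of read assignment in the opposite signs of the 2 genes was not tested. When the counts of Cyp4a10, Cyp4a31 and Cyp4a32 were summed, the log2 fold change was -0.63 (SE 0.23, adjusted p = 0.0351). Cyp4a14 was not part of that sum and shares no 75-base coding window with any of the 3. Shorter shared stretches, and sequence outside the coding part, were not searched. Cyp4a12a, a further gene of the cluster that is high in male liver, was at 140.0, 416 and 1064 CPM against 125, 189 and 313 CPM (log2 fold change 1.5, SE 0.42, adjusted p = 0.00942), a call that held in 3 of 12 fits that left out 1 library.

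Ketogenesis is represented among the members by Bdh1, which converts acetoacetate to beta-hydroxybutyrate. It fell 1.57-fold, from 251, 323 and 382 CPM to 121, 211 and 256 CPM (log2 fold change -0.65, SE 0.15, adjusted p = 0.00222). Fibrotic replicate 4 was lowest, and the groups overlapped by a single pair of libraries.

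Fabp1, the liver fatty acid binding protein that carries fatty acids in the cytosol, had the largest fall of the members. Its level was 96.2, 321 and 497 CPM in fibrotic and 1663, 2100 and 2351 CPM in FLO livers, so that the highest fibrotic library lay far under the lowest FLO library. The fall was 6.61-fold (log2 fold change -2.72, SE 0.29, adjusted p = 3.90e-06). Fibrotic replicate 4 was lowest, and the gene was called in all 12 fits that left out 1 library. Per kilobase of its longest transcript, Fabp1 went from the most abundant member in FLO livers, at a mean of 3709 CPM per kb, to 562 CPM per kb in fibrotic livers, below Acaa1b (1519 CPM per kb) and Cyp4a14 (1116 CPM per kb) and next to Acaa2 (553 CPM per kb). Cyp4a31 was the lowest member in FLO livers on the same scale, at 1.87 CPM per kb, and reached 21.5 CPM per kb in fibrotic livers.

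Pdk4, the kinase that shuts pyruvate out of the mitochondrial oxidation of glucose, rose 5.09-fold. It was at 50.8, 160 and 571 CPM in fibrotic and 23.1, 41.1 and 72.2 CPM in FLO livers. All 6 fibrotic libraries were above the FLO median, fibrotic replicate 4 was 2.97 times the next, and the lowest fibrotic library lay inside the FLO range. The log2 fold change was 2.35 (SE 0.52, adjusted p = 0.00287) with all libraries and 1.76 (SE 0.38, adjusted p = 0.00267) without fibrotic replicate 4.

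Of the secreted proteins, Angptl4, an inhibitor of lipoprotein lipase, rose 1.49-fold, from 173, 269 and 301 CPM to 286, 402 and 417 CPM (log2 fold change 0.57, SE 0.13, adjusted p = 0.00166). The lowest fibrotic library overlapped the FLO range. Without FLO replicate 3 the value was 0.48 (SE 0.10, adjusted p = 0.00165), within the fold limit and not called. Fgf21, the fasting hormone of the liver, was low throughout, at 1.78, 3.03 and 5.57 CPM against 3.32, 5.43 and 12.2 CPM, with overlapping groups. Its log2 fold change of -0.98 (SE 0.36, adjusted p = 0.0353) was not called. Vnn1, a pantetheinase anchored in the membrane, was at 0.27 (SE 0.12, adjusted p = 0.0760).

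Some pairs of members were also set side by side within each library. The ratios below were picked with the values known and carry no test. The ratio of Cyp4a14 to Cyp4a10 CPM was 3.45, 6.97 and 9.05 (lowest, median and highest) in fibrotic and 1.66, 1.86 and 2.40 in FLO livers. That of Ehhadh to Acaa1b was 0.280, 0.296 and 1.02 against 0.109, 0.129 and 0.167. That of Hadhb to Acadm was 0.868, 1.04 and 1.30 against 0.455, 0.503 and 0.523. None of these ratios overlapped between the groups, and a ratio within a library is not affected by how libraries are scaled to each other. The ratio of Acot2 to Acot1 was 0.415, 0.786 and 0.932 against 0.242, 0.307 and 0.409, with fibrotic replicate 4 included.

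**Figure D3:**
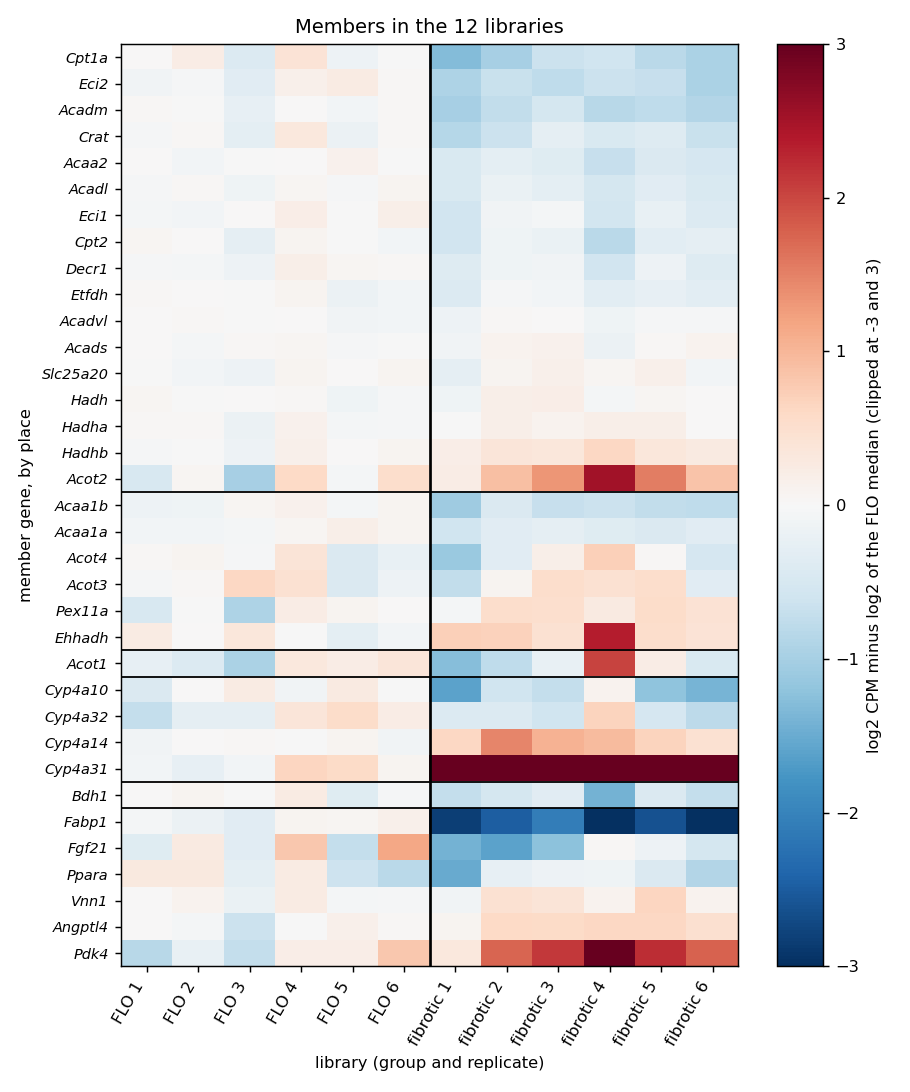
The 35 genes (rows, by place) in the 12 libraries (columns), as log2 CPM minus the log2 of the gene's FLO median, clipped at -3 and 3. Cyp4a31 and Pdk4 are raised and Fabp1 is lowered in all 6 fibrotic columns, and the fibrotic replicate 4 column holds the strongest values for Ehhadh, Acot1, Acot2 and Pdk4.

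The libraries of a group differed over many members at once. Fibrotic replicate 1 was the lowest fibrotic library for 23 of 35 members and the highest for 0, and fibrotic replicate 4 was the highest for 12 and the lowest for 7. Among FLO libraries, replicate 4 was the highest for 16 members and the lowest for 0, and replicate 3, the library against its stated sex, the lowest for 16. Leaving out fibrotic replicate 4 and FLO replicate 3 together gave 4 members called higher and 8 called lower: Ehhadh (0.59, adjusted p = 0.000478) and Cyp4a10 (-1.002, adjusted p = 0.000746) were gained, and Acot2 (0.86, adjusted p = 0.0188) and Angptl4 (0.46, adjusted p = 0.00181) were lost. Cyp4a31, Cyp4a14, Pdk4, Fabp1, Cpt1a, Acadm, Eci2, Acaa1b, Bdh1 and Crat were called in that fit as well.

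A wider set of 165 genes of the same pathways, in 8 lists that hold no member, was described with the same fit. Ppard is both in the list of other targets and in that of partners, and the set counts it only once. Of 161 tested, 23 were called higher and 48 lower, together 44.1%, and the median log2 fold change was -0.19. Of all 13416 tested genes 29.9% were called, so the 14.3% called higher here lay near the 15.9% of all genes, and the 29.8% called lower stood against 14.0%. The lists were chosen with earlier results of these data known, so these shares describe the lists and test nothing. Kupffer cell markers (7 of 8 called higher) and hepatocyte markers (2 of 8 called lower) also moved in the same livers, and their part was not tested.

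Of 18 genes of fatty acid uptake and activation, 9 fell and 1 rose, with a median of -0.64. Acsm5, a mitochondrial acyl-CoA synthetase, fell 4.62-fold, from 83.0, 114 and 141 CPM to 12.1, 21.03 and 35.1 CPM (log2 fold change -2.21, SE 0.23, adjusted p = 4.33e-06). Fabp2, the intestinal type of fatty acid binding protein, fell by 1.89 on the log2 scale and Slc27a5, the bile acid and very long chain acyl-CoA ligase, by 1.39. The gene that rose was Acsl4, the ligase with a preference for arachidonic acid, from 38.4, 39.6 and 45.7 CPM to 130.5, 143 and 206 CPM (log2 fold change 1.91, SE 0.11, adjusted p = 4.42e-09). Acsl1, the main ligase of hepatocytes, was at 0.26 (adjusted p = 0.201), and Cd36, a fatty acid translocase, at 0.43 within the fold limit although its groups did not overlap (adjusted p = 0.000432).

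Mitochondrial and peroxisomal genes outside the member list gave more falls than rises, where 14.0% of all tested genes fell and 15.9% rose. Of 23 other mitochondrial genes 11 fell (47.8%) and 2 rose (8.7%), with a median of -0.34. The falls included Acad10, an acyl-CoA dehydrogenase (-1.38, adjusted p = 1.02e-05), and the propionyl-CoA carboxylase subunit Pccb (-1.17, adjusted p = 3.50e-08). Ucp2, an uncoupling protein family member of the inner membrane that macrophages also express, rose by 1.25 (adjusted p = 0.000186). Of 42 other peroxisomal genes 11 fell (26.2%) and 5 rose (11.9%), with a median of -0.30. Phyh, which starts the removal of the branched phytanic acid, fell by 1.88 (adjusted p = 3.63e-07) and Pex6, an import factor, by 1.21 (adjusted p = 6.56e-08). Rises without overlap included Tysnd1 (0.93, adjusted p = 3.98e-06) and Pex13, another import factor (0.66, adjusted p = 4.34e-06). Cat, the catalase, was at -0.44 (adjusted p = 0.0183).

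The shares below stand against 14.0% of all tested genes that fell and 15.9% that rose. Of 7 tested genes of carnitine synthesis and transport 2 fell (28.6%), Aldh9a1 (-0.93) and Bbox1 (-0.76), which encode enzymes of carnitine synthesis. Of 13 tested microsomal genes 6 fell (46.2%) and 2 rose (15.4%). Falls included Cyp4f14 (-1.51), Cyp4f15 (-1.13) and Cyp4f13 (-1.08), and Cyp4f16 rose (1.13). These named genes belong to the Cyp4f family of fatty acid and leukotriene hydroxylases. Of 10 other ketone body genes 3 fell and 2 rose. Of 23 tested other targets of Ppara 4 rose and 4 fell, with a median of 0.03. Aldh1a1, a retinaldehyde dehydrogenase, rose from 2258, 2696 and 3284 CPM to 6357, 7160 and 8564 CPM (1.403, SE 0.12, adjusted p = 2.12e-07), and Lpl, lipoprotein lipase, rose by 1.64 (adjusted p = 0.00204), whereas Retsat, a retinol saturase, fell by 1.16 (adjusted p = 7.73e-06). Plin2, a lipid droplet coat protein, was at 0.03 (adjusted p = 0.875), and Creb3l3, a hepatic transcription factor of lipid genes, at -0.35 (adjusted p = 0.0342).

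Of 26 partners and modifiers of the receptor 8 rose (30.8%, against 15.9% of all tested genes) and 2 fell (7.69%, against 14.0%). The median was 0.27. The receptor's dimer partner Rxra was at 0.15 (SE 0.10, adjusted p = 0.224) and the coactivator Ppargc1a at 0.64 (adjusted p = 0.0317), neither called. Rises were called for the coactivator Ncoa1 (0.96, adjusted p = 1.03e-05) and the estrogen-related receptor Esrra (0.92, adjusted p = 3.00e-07). Ppard, the related receptor PPAR-delta, rose by 0.61 (SE 0.10, adjusted p = 0.000160) and is also counted among the rises of the other targets.

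**Figure D4:**
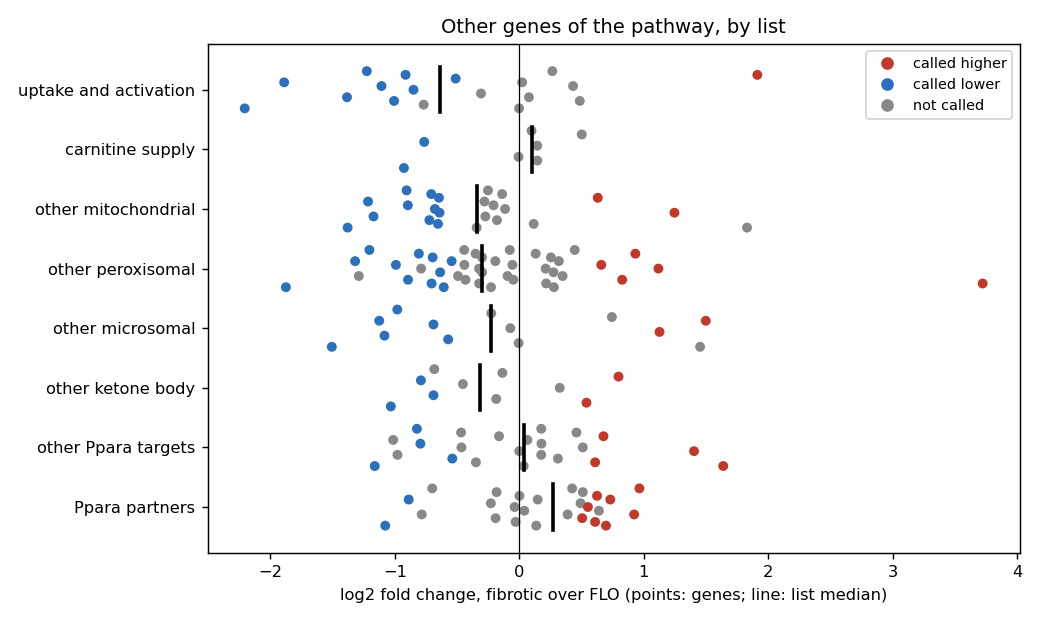
The log2 fold change, fibrotic over FLO, of each of the other tested pathway genes (points), by list, with a line at each list's median. Medians run from -0.64 for uptake and activation to 0.27 for partners of the receptor, and Acot5 is the point at 3.72.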

How the data were processed

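Poly(A)-selected RNA from whole livers of 12 ob/ob mice was measured, 6 fibrotic and 6 FLO, grouped by sample title. The authors deposited 1 table of raw, unnormalized counts per Ensembl gene. The submitters' processing notes name STAR 2.7.3a, bcl2fastq and mm10, and the study's methods name PISCES. The mouse annotation and the use of strand are not given in the sources used here. Identifiers without a symbol held 0.0587% of counts. Libraries held 17815568 to 24814263 counts, so counting error is small beside the spread between libraries except for genes near 10 CPM or less.

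The deposited counts were tested in R 4.3.3 with edgeR 4.0.16 (filterByExpr, TMM, robust quasi-likelihood fit, group as the only term, Benjamini-Hochberg over 13416 genes). Calls used the thresholds of the study's methods, an adjusted p of at most 0.01 and a log2 fold change beyond 0.5 in either direction. The SE is the absolute log2 fold change divided by the square root of F. CPM uses the TMM-normalized library size. The fit was tested on simulated counts. Libraries are separate mice by their labels, and no pair was a duplicate. Replicate numbers are not described as shared animals or batches, and the main fit did not pair the samples by them.

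The alternatives were other scalings (RLE, upper quartile, and TMM leaving aside the 50 most counted genes), no filter or at least 10 counts in every library, DESeq2 1.42.0, limma-voom (limma 3.58.1), a non-robust fit, a replicate block, a threshold of 0.05 with no fold limit, summed near-identical genes and leaving out each library. Scaling to total counts, and leaving out 2 libraries together, were added after the data were seen. The members and lists were chosen with earlier results of these data known. Named genes were all members, up to 4 rises and 4 falls per pathway list among called genes without overlap, and genes fixed by name, some of which are not reported here. Sequences are from RefSeq (GRCm38.p6) and GENCODE M21. The latter lacks 4460 identifiers of the table.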

Additional observations from a re-analysis of the deposited data

Results flagged for a closer look

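Within each group of 6 libraries, the gap between the highest or lowest library and its neighbour, as a share of the group's range on the log2 CPM scale, was compared with Dixon's 95% critical value for 6 samples, for each member. Of 70 pairs of gene and group, 5 passed, where chance at 1 in 20 gives 3.5. Fibrotic replicate 4 was far above the other fibrotic libraries for Ehhadh (0.839) and Cyp4a32 (0.743) and far below them for Bdh1 (0.640). For Angptl4, fibrotic replicate 1 was far below the fibrotic libraries (0.732) and FLO replicate 3 far below the FLO libraries (0.730). On the linear CPM scale, examined after these values were seen, 7 passed: Ehhadh (0.915), Cyp4a32 (0.830), Acot1 (0.796), Pdk4 (0.728) and Hadhb (0.640) with fibrotic replicate 4 highest, and both of Angptl4 (0.694 and 0.674), whereas Bdh1 did not pass. Hepatocyte marker genes summed to 50590 CPM in fibrotic replicate 4, the lowest of all libraries, and Kupffer cell markers to 576 CPM, the highest, and their part in its values was not tested.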

How the results depend on the processing

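Of 812 member values recomputed, 763 kept their direction and side of the threshold, 18 lost a call, 11 gained one and 20 changed sign, and 20 members kept both in every setting. Leaving out each library gave 3 to 6 members higher (3 without FLO replicate 3) and 6 to 8 lower. At an adjusted p of 0.05 with no fold limit, 8 members were higher and 15 lower, where 27.3% and 24.8% of all tested genes were, and 38 other pathway genes were higher and 69 lower, because the threshold is looser. The replicate block gave 5 members higher and 8 lower (Cyp4a10 was gained at -0.90, adjusted p = 0.00460), and 20 and 50 other pathway genes. No pairing by replicate number was seen: deviations of same-numbered libraries correlated at -0.162 to 0.104, and 0 of 6 libraries matched their own number best. Whether the numbers mark a batch was not tested. Scaling to total counts moved the median of all genes from 0.03 to 0.20 and the share of calls that were higher from 53.3% to 71.8%, with 7 members higher and 5 lower. Sign changes outside leaving out libraries were Acadvl to 0.15 and Acot4 to 0.16 with total counts, Acads to -0.0039 with RLE, -0.012 with upper quartile and -0.0023 with DESeq2, and Cyp4a31 from 3.53 to -0.63 when summed with the more abundant Cyp4a10 and with Cyp4a32. Leaving out 1 library gave Acads -0.0020 to 0.061, Acot3 -0.062 to 0.16, Acot4 -0.26 to 0.099 and Acot1 -0.36 to 0.62, and leaving out fibrotic replicate 4 and FLO replicate 3 gave Acads 0.066, Acot4 -0.27 and Acot1 -0.49. DESeq2 called 4655 of all genes. For members below 10 CPM (Cyp4a32, Fgf21, and Cyp4a31 in FLO livers) depth limits what differences can be seen. Tests meant for members under the low-count filter were not run, since none was under it.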
